A study of Rattus norvegicus with 24 samples.

Results

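The genes of fatty acid uptake and oxidation followed here were measured in rat blood and cover the route from entry of the fatty acid into the cell to the control of its burning: Slc27a2, Cpt1a, Cpt2, Acadl, Acadm, Hadha, Pdk4, Ucp2 and Ppara. These 9 genes, of 25885 gene names on the array, were each selected by name. Slc27a2 was chosen for its low values in LPS-injected rats on the G1 diet compared with LPS-injected rats on the control diet, so that difference is given as a description with no test. Blood RNA of single male Sprague-Dawley rats, 8 weeks old at the start, was measured on 24 two-color arrays, 4 in each of 6 groups. The other channel of each array held a common reference. By the labels it was pooled from all rats of the experiment, and by the study's methods from 3 animals per group that were not measured singly. A value is the level in 1 rat relative to that pool.

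All rats were fed for 6 weeks. C-G0 received the control diet without beta-glucan and no LPS. LPS-G0 received the same diet and LPS, a bacterial cell wall component that provokes inflammation, at 10 mg/kg. C-G1 and C-G2 were fed oat beta-glucan of high (G1) or low (G2) molecular weight without LPS, and LPS-G1 and LPS-G2 were fed the same preparations and given LPS. By the study's methods the LPS injection was repeated and rats without LPS were injected with saline. Blood was taken by cardiac puncture from fasted rats. For LPS-G0 replicates 3 and 4 the titles give LPS and another label field gives control. The LPS-G1 minus LPS-G0 differences of Slc27a2, Cpt1a and Hadha are therefore also given without these replicates. So are the G1 minus G0 differences of Acadm, Cpt1a, Hadha and Ucp2 averaged over rats with and without LPS. For further genes of the route only counts are given without them. Markers of the labelled tissue, blood, were looked at. Of the marker genes on the array, 9 of 9 erythroid, 8 of 8 monocyte, 8 of 8 T cell, 5 of 5 B cell, 6 of 6 NK cell, 9 of 10 neutrophil and 8 of 9 platelet genes were well above background on at least 1 array. On all 24 arrays it was 8 erythroid, 5 monocyte, 6 T cell, 4 B cell, 3 NK cell, 5 neutrophil and 8 platelet genes. On at least 1 array 7 of 8 hepatocyte, 3 of 4 kidney and 5 of 7 heart muscle genes were seen as well, so that threshold does not single out blood. In blood, a mixture of cells, fewer cells of a type and less RNA per cell cannot be told apart. Arrays lay on 3 slides of 8, each with all 6 groups, and an array had 7786 to 15385 probes detected in the rat channel, with a higher median on slide 3 (13532) than on slides 1 and 2 (11202 and 10561.5).

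Long-chain fatty acids enter cells with the help of transport and activating proteins such as Slc27a2 (FATP2), which also joins very long-chain fatty acids to coenzyme A and is best known from liver and kidney. Cpt1a, on the outer mitochondrial membrane, makes the acyl-carnitine that crosses into the mitochondrion and is the controlled step of the route, and Cpt2 on the inner membrane turns it back into acyl-CoA. Acadl and Acadm are the acyl-CoA dehydrogenases for long and medium chains, and Hadha is the alpha subunit of the trifunctional protein that carries out the later steps on long chains. Pdk4 holds back glucose oxidation when fat is burned, Ucp2 is an inner-membrane carrier that is abundant in blood and immune cells, and Ppara is the fatty acid-sensing nuclear receptor that switches on many of these genes.

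The 9 genes were read by 10 probes of 60 bases. The stretches below are shown since the results turn on them: the first 30 bases of the probes of Slc27a2, Cpt1a and Acadm, the genes with the widest values or a difference between diets, and the full probes of Hadha, whose pair of probes gave different answers, and of Ucp2. They are copied from the array files, 5′ to 3′ in the sense of the transcript, and no part is set in capitals.
Slc27a2: tttcaatgtgcacctgccatttgtccttgc
Cpt1a: cagtcagattccaaccagagtcaaattcca
Acadm: tctgttgagttccacagtgaccctttctag
Hadha, main probe: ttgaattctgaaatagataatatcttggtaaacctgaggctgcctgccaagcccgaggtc
Hadha, second probe: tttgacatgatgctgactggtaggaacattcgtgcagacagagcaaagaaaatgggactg
Ucp2: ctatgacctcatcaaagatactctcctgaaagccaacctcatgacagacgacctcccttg
On the rn4 assembly used by the array files, the Slc27a2 probe lies at chr3:114114177-114114236 on the plus strand and begins at base 2870 of its transcript. The Cpt1a probe lies at chr1:205912066-205912125 on the plus strand and the Acadm probe at chr2:251867002-251867061 on the minus strand. The Ucp2 probe spans 444 bases of the genome, at chr1:157927128-157927571, so it crosses an exon junction. The Hadha probes lie on a stretch assigned to chromosome 6 without a position, chr6_random:467174-467737 for the main and chr6_random:452613-452672 for the second. The main probe also crosses a junction and begins at base 1957 of the transcript, whereas the second begins at base 607. The remaining probes lie at chr5:129007858-129007917 (Cpt2), chr9:65613235-65613294 (Acadl), chr4:30239150-30241038 (Pdk4, across a junction) and chr7:123807031-123807090 (Ppara). The Slc27a2 probe and the second Hadha probe were printed as 1 spot per array, and those of Cpt1a, Cpt2, Acadm and Ucp2 as 10.

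The genes fell into 3 classes by detection. Acadl, Acadm, Hadha (both probes) and Ucp2 were well above background on all 24 arrays. Slc27a2 was detected on 17 of 24 arrays, Cpt1a on 19 and Cpt2 on 4. Pdk4 and Ppara were not well above background in any rat, with Cy3 signals of 7.96 to 21.3 for Pdk4 and 8.86 to 35.0 for Ppara. For Pdk4 both channels were so dim that the ratio was set to 0 on 15 arrays, and in the reference it was well above background on 1 array. Ppara was above background in the reference on 10 arrays. The 4 arrays on which Cpt2 was detected were replicate 4 of C-G0, C-G1, LPS-G1 and C-G2, all on slide 3, where the median number of detected probes was highest. A probe was tested when it was well above background on all 4 arrays of at least 1 group. In all 6 genes passed, Slc27a2, Cpt1a, Acadl, Acadm, Hadha and Ucp2, and 3 (Cpt2, Pdk4 and Ppara) did not. Cpt1a passed only through C-G1 and LPS-G1, and Slc27a2 only through C-G0, LPS-G0 and LPS-G2, the groups in which each was highest. Their calls are thus conditioned on the higher group, and the adjusted p is given for them from a fit of all probes without this filter.

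**Figure D1:**
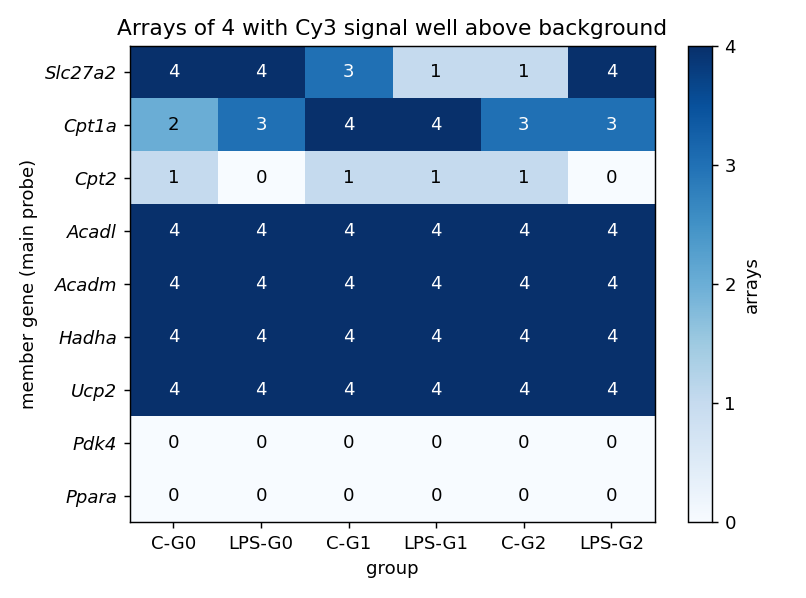
Number of arrays of 4, by group (columns) and member gene (rows), on which the gene's main probe had a Cy3 signal well above background. Acadl, Acadm, Hadha and Ucp2 show 4 of 4 throughout, Pdk4 and Ppara 0 of 4, and Slc27a2 drops to 1 of 4 in LPS-G1 and in C-G2.

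Slc27a2 had the widest values of the 9 genes, and its low values were not limited to 1 group. Values are log2 ratios of the rat channel, Cy3, over the reference channel, Cy5. The sample labels give these dyes and the study's methods the reverse, so directions here are the opposite of those its dyes imply. Over 7074 probes bright in both channels on every array, the median SD between arrays of a group was 0.38 in Cy3 and 0.26 in Cy5 (log2), and it was larger in Cy3 for 95.3% of probes. In C-G0 the Slc27a2 log2 ratios were -0.38, -0.39, 0.07 and 0.32, and in LPS-G0 they were 1.19, 0.55, -0.06 and 1.67. LPS-G2 lay in the same region, with -0.07, 0.70, 0.39 and -0.64. In these 3 groups the gene was well above background in all 4 rats. In C-G1 it was 0.25, 0.96 and 0.17 in 3 rats and -3.25 in replicate 3. In LPS-G1 it was 0.38 in replicate 1 and -2.92, -2.33 and -1.84 in the others. In C-G2 it was -2.92, -2.94, -0.62 and -1.90. Each of these groups thus held at least 1 rat in the range of the C-G0 and LPS-G2 rats and at least 1 far below it.

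Over all 24 rats the Slc27a2 values left a gap. The 7 rats without a detected signal (3 in LPS-G1, 3 in C-G2 and 1 in C-G1) had log2 ratios of -3.25 to -1.84 and Cy3 signals of 14.6 to 39.0. The other 17 had log2 ratios of -0.64 to 1.67 and Cy3 signals of 76.4 to 466. The reference on the same 7 arrays gave a Cy5 signal of 129 to 177, within the 95.8 to 241 of the other 17, so the gap is in the rat channel. The dim rats were spread over the slides, with 1 on slide 1, 4 on slide 2 and 2 on slide 3. The probe was a single spot per array, so no second spot bears on these values. Where a signal is not above background the ratio only bounds the level, and the true difference may be larger.

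**Figure D2:**
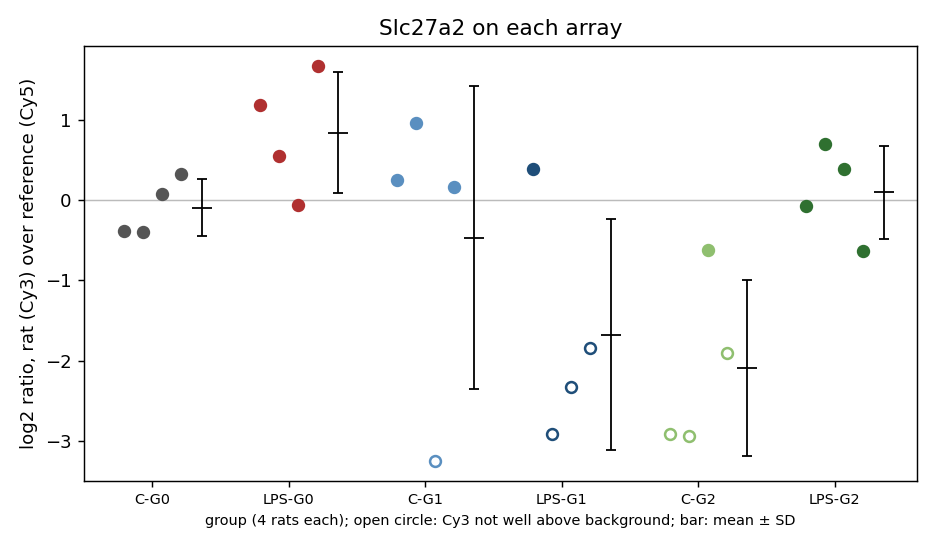
Log2 ratio of Slc27a2 (y axis, rat Cy3 over reference Cy5) on each array of the 6 groups (x axis), with the mean ± SD beside the 4 rats. Filled circles are well above background in Cy3 and open circles are not; the 7 open circles, in C-G1, LPS-G1 and C-G2, all lie at or below -1.84, and every filled circle at or above -0.64.

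The mean log2 ratio of Slc27a2 was 0.84 ± 0.76 (SD, n = 4) in LPS-G0, 0.09 ± 0.58 in LPS-G2, -0.10 ± 0.35 in C-G0, -0.47 ± 1.89 in C-G1, -1.68 ± 1.44 in LPS-G1 and -2.10 ± 1.09 in C-G2. No group differed from its neighbour in this order by more than the larger of their SDs. The difference for which the gene was chosen, LPS-G1 minus LPS-G0, was -2.51 (5.71-fold lower), and LPS-G1 replicate 1 overlapped LPS-G0. Without LPS-G0 replicates 3 and 4 it was -2.55. On slides 1, 2 and 3 it was -0.49, -2.56 and -3.52. The comparisons C-G2 vs C-G0, LPS-G2 vs C-G2 and C-G1 vs C-G0 share no array with that choice. C-G2 minus C-G0 was -1.999 (log2, SE 0.73), with no overlap, and limma's adjusted p without the filter was 0.568. On the 3 slides the difference was -2.53, -3.00 and -1.59. LPS-G2 minus C-G2 was 2.19 (SE 0.73), with an adjusted p of 1.00 from limma without the filter, and 2.85, 3.63 and 1.14 on the slides. C-G1 minus C-G0 was -0.37, with a 95% interval of -1.88 to 1.14. With normexp background correction the C-G2 minus C-G0 and LPS-G2 minus C-G2 differences were -0.65 and 0.81, and LPS-G1 minus LPS-G0 was -1.21. The remaining comparisons, which share arrays with the choice, gave log2 differences of 0.93 (LPS-G0 vs C-G0), -0.74 (LPS-G2 vs LPS-G0) and -1.21 (LPS-G1 vs C-G1), with no test.

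Markers of the organs in which Slc27a2 is best known were looked at as well. Of 8 hepatocyte genes, 7 were above background on at least 1 array and Cyp2e1 on none, and their summed Cy3 signal was 2301 to 2769 in LPS-G0, 2248 to 3194 in LPS-G1, 2567 to 3981 in C-G0, 2324 to 5951 in C-G1, 2185 to 3282 in C-G2 and 1782 to 2790 in LPS-G2. Of 4 kidney genes, 3 were seen on some array and Slc34a1, the proximal tubule phosphate carrier, on none. Their summed signal was 425 to 1640 in C-G0, 471 to 1188 in LPS-G0, 272 to 608 in C-G1, 329 to 716 in LPS-G1, 291 to 967 in C-G2 and 356 to 652 in LPS-G2. By mean log2 ratio the kidney list stood at -0.75 to -0.09 in LPS-G1 against 0.06 to 0.41 in LPS-G0, with no overlap. It was -1.65 to -0.44 in C-G1, -0.50 to 0.24 in C-G0, -0.57 to 0.15 in C-G2 and -0.21 to 0.05 in LPS-G2. The hepatocyte list overlapped between the G1 and control diets by this measure, with and without LPS. The part of either list in the Slc27a2 values was not tested.

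The 5 genes whose pattern over the 24 arrays was most like that of Slc27a2, out of the probes tested, were C2cd3 (Pearson r 0.74), Lmbr1l (0.69), Nbl1 (0.69), Eid1 (0.67) and Ybey (0.67). For Cpt1a the closest genes were nearer, Kidins220 (0.89), Galnt11 (0.89), Ncoa6 (0.87), Tmem19 (0.86) and Bod1l1 (0.86). All points share the reference RNA, and these values are descriptions.

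LPS on the control diet gave none of the 5 tested members other than Slc27a2 a difference beyond the replicate error. Slc27a2 was left untested here, since the comparison shares arrays with its choice. In LPS-G0 vs C-G0, 0 of the 5 others passed an adjusted p of 0.05 and 0 an unadjusted p of 0.05, against 0.00969% and 15.2% of the 10315 probes tested. Their log2 differences ran from -0.10 to 0.42, with a median of 0.09 (all probes 0.03). Their 95% intervals lay between -0.69 (Cpt1a) and 0.87 (Ucp2), and differences within a gene's own interval were not excluded. Acadl had an interval of -0.11 to 0.47 and the main probe of Hadha -0.22 to 0.37. LPS within the G1 diet (LPS-G1 vs C-G1) and within the G2 diet (LPS-G2 vs C-G2) likewise gave 0 of 5 at either threshold. The background was 0.00934% adjusted and 2.81% unadjusted in the first, and 0% and 1.09% in the second. The difference of the LPS effect between diets was tested for these 5 genes and none passed. The interaction with G1 had unadjusted limma p-values of 0.358 to 0.893 and that with G2 of 0.419 to 0.824, with adjusted p-values of 0.874 or more.

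Among the 5 members other than Slc27a2, main probes passed limma's unadjusted p of 0.05 only between the G1 diet and the control diet. Such a call was common over all probes there. The group means of Cpt1a and Acadm were higher, and those of Hadha and Ucp2 lower, on G1 in both pairs of groups, with and without LPS, which share no array. In LPS-G1 vs LPS-G0, 0 of the 5 genes passed the adjusted p (background 8.93%, or 0.989% where a 2-fold change was also asked for). Cpt1a and Hadha passed the unadjusted p, 2 of 5 (background 26.9%), but Cpt1a was tested only through LPS-G1, its higher group. In C-G1 vs C-G0, 0 of 5 passed the adjusted p (background 0.028%), and Acadm and Hadha passed the unadjusted p, 2 of 5 (background 27.9%). Both pairs were then combined, as the mean of the G1 minus G0 differences in the fit of all 24 arrays, a contrast chosen after the data were seen. In it Acadm and Hadha, 2 of the 4 genes detected in every rat, passed an adjusted p of 0.05, against 27.9% of the 10708 probes tested, so a call in this contrast is common. Cpt1a passed as well, the third of the 5 genes, but it entered the test through the G1 groups alone.

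Cpt1a, the gate of the route, had higher group means on the G1 diet, but no difference passed the adjusted p without the filter. Its log2 ratios were -0.01, 0.30, 0.27 and 0.69 in LPS-G1 and -0.17, -0.10, -0.66 and -0.22 in LPS-G0, with no overlap. In C-G1 they were 0.33, 0.68, 0.16 and 0.20 and in C-G0 -0.70, 0.28, -0.63 and 0.31, which overlap. C-G2 held 0.04 ± 0.26 and LPS-G2 -0.29 ± 0.55. LPS-G1 minus LPS-G0 was 0.60 (SE 0.28, limma adjusted p 0.416 without the filter), and on slides 1, 2 and 3 it was 0.12, 0.94 and 0.91. Without LPS-G0 replicates 3 and 4 it was 0.45. Averaged over both pairs the difference was 0.56 (SE 0.18, 1.48-fold, limma adjusted p 0.0989 without the filter and 0.0312 with it). Of the 8 G1 rats, 3 lay above the highest G0 rat.

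Acadm, the medium-chain dehydrogenase, was also higher on G1. Its log2 ratios were 0.15, 0.33, 0.05 and 0.08 in C-G1 against -0.87, -0.27, -0.54 and 0.01 in C-G0, with no overlap. In LPS-G1 they were -0.21, 0.08, -0.10 and 0.25 against -0.31, -0.47, -0.21 and -0.32 in LPS-G0, where replicate 1 of LPS-G1 lay beside the highest LPS-G0 rat. C-G1 minus C-G0 was 0.57 (SE 0.18, limma adjusted p 0.114, exact permutation p 0.0286), at 0.72, 0.73 and 0.06 on the slides. Without C-G0 replicate 4, the highest rat of its group, it was 0.71 with a limma adjusted p of 0.0235. Without C-G0 replicate 1, the lowest, it was 0.42 with a limma adjusted p of 0.474. The average over both pairs was 0.45 (SE 0.13, 1.36-fold, adjusted p 0.0201), and 6 of the 8 G1 rats lay above every G0 rat. C-G2 was -0.10 ± 0.32 and LPS-G2 -0.15 ± 0.24, between the G0 and G1 groups.

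Acadl, its long-chain relative, showed no difference past the test. Its log2 ratio ran from -0.10 to 0.61 over all 24 rats with a median of 0.30, and all groups overlapped. The average G1 minus G0 difference was 0.05, with a 95% interval of -0.16 to 0.27.

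Hadha was lower on the G1 diet by its main probe. The 4 log2 ratios were -0.05, -0.36, -0.43 and -0.19 in C-G1 and 0.35, -0.05, 0.14 and -0.09 in C-G0. They were 0.12, -0.14, -0.28 and -0.28 in LPS-G1 and 0.32, 0.24, 0.01 and 0.07 in LPS-G0. Both pairs overlapped. C-G1 minus C-G0 was -0.34 (SE 0.15, limma adjusted p 0.155) and LPS-G1 minus LPS-G0 -0.30 (SE 0.14, limma adjusted p 0.177), or -0.42 without LPS-G0 replicates 3 and 4. Within slides the first was -0.20, -0.53 and -0.10 and the second -0.16, -0.22 and -0.35. The average over both pairs was -0.32 (SE 0.11, 1.25-fold, limma adjusted p 0.0317). The second probe, in another part of the transcript, gave -0.25 (SE 0.19, limma adjusted p 0.328). In LPS-G1 vs LPS-G0 it went the other way, at 0.10 (limma adjusted p 0.825), and the mean of both probes was -0.10 (limma adjusted p 0.724). Over the 24 arrays the pair of Hadha probes correlated at only r 0.28. In C-G2 vs C-G0 the second probe gave -0.82 (SE 0.28, limma adjusted p 0.241) and the main probe -0.14, so the Hadha call rests on the main probe.

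Ucp2 had a Cy3 signal of 5708 to 26845. Its log2 ratios were 0.13, 0.35, -0.01 and 0.74 in LPS-G0 and -0.03, -0.11, -0.10 and -0.35 in LPS-G1, with no overlap. In C-G1 they were -0.12, -1.63, -0.55 and -0.21, and in C-G0 0.32, -0.35, -0.40 and -0.04. Replicate 2 of C-G1 stood lowest of all 24 rats. The average G1 minus G0 difference was -0.48 (SE 0.21, limma adjusted p 0.0881) and did not pass. Without C-G1 replicate 2 it was -0.31 (limma adjusted p 0.221), and with array weights -0.23. C-G2 (0.24 ± 0.61) and LPS-G2 (0.30 ± 0.39) lay with LPS-G0. Cpt2, too dim to be tested, was at 0.13 ± 0.32 in C-G1 and -0.16 ± 0.31 in LPS-G1, against -0.64 ± 0.54 in C-G0 and -0.67 ± 0.17 in LPS-G0. Only 1 of 4 LPS-G1 arrays and no LPS-G0 array was above background, so no fold is given.

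**Figure D3:**
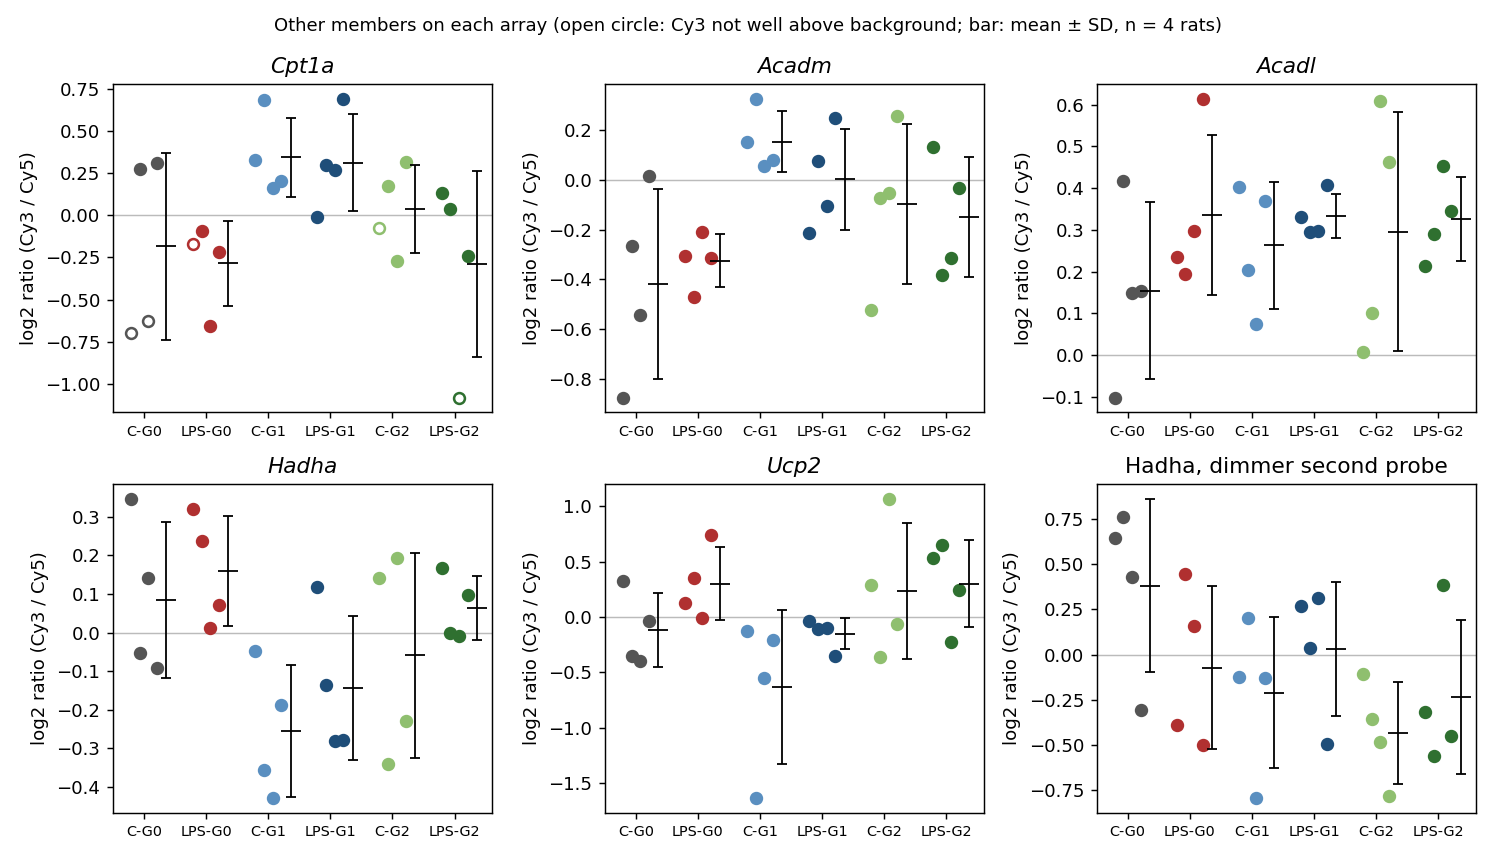
Log2 ratios (y axes, rat Cy3 over reference Cy5) of the other tested members on each array by group (x axes), with mean ± SD of 4 rats; open circles were not well above background in Cy3. Cpt1a and Acadm sit higher, and Hadha (main probe) and Ucp2 lower, in C-G1 and LPS-G1 than in C-G0 and LPS-G0, while Acadl shows no such step and the second Hadha probe scatters.

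The calls in the averaged contrast were not firm. The adjusted p-values of Cpt1a in this paragraph keep the filter, which it passed through the G1 groups alone. Without C-G0 replicate 1 the number of the 5 genes that passed went from 3 to 0, and without C-G1 replicate 2, LPS-G1 replicate 2 or LPS-G1 replicate 4 to 1. With the slide as a block it was 1, Acadm alone, with Cpt1a at an adjusted p of 0.0506 and Hadha at 0.0625, and with all probes tested or with Cy3 alone it was 0. With Cy3 alone the Hadha difference was -0.09 (limma adjusted p 0.582). With normexp correction that of Acadm was 0.24 and that of Cpt1a 0.21. Without LPS-G0 replicates 3 and 4 the differences were 0.48 for Acadm, 0.49 for Cpt1a, -0.38 for Hadha and -0.45 for Ucp2, and Cpt1a had a limma adjusted p of 0.102.

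**Figure D4:**
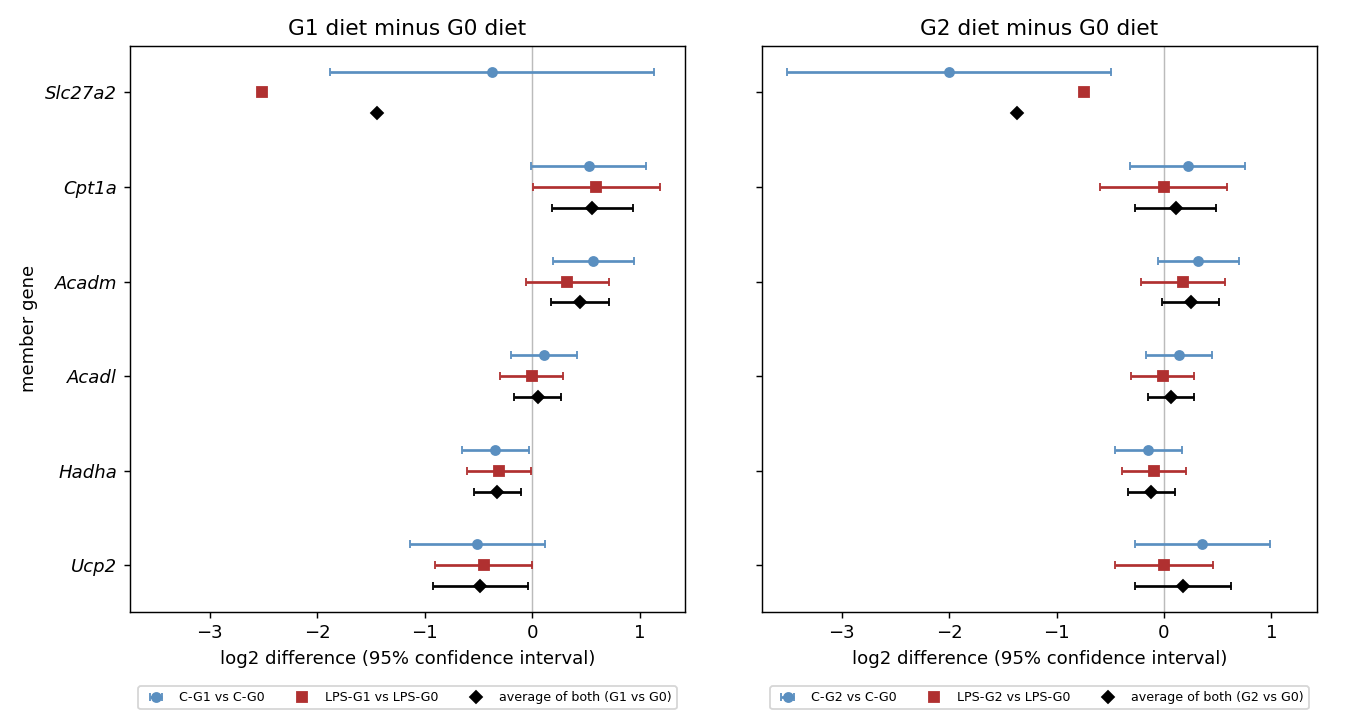
Log2 difference (x axis) between beta-glucan diet and control diet for the 6 tested members (y axis), G1 left and G2 right, without LPS, with LPS and averaged over both; bars are 95% confidence intervals, left out where the arrays for which Slc27a2 was chosen enter. For G1 the averaged intervals of Cpt1a, Acadm, Hadha and Ucp2 exclude 0; for G2 all intervals of these genes include it.

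On the G2 diet no gene of these 5 passed a threshold. For LPS-G2 vs LPS-G0, 0 of the 5 genes other than Slc27a2 passed at either threshold (background 0% adjusted and 8.23% unadjusted). In C-G2 vs C-G0 it was also 0 of 5 at either (background 0.028% and 13.3%). Averaged over both pairs the background was 0.00934% and 0 of 5 passed, with differences of 0.25 for Acadm (95% interval -0.02 to 0.52), 0.11 for Cpt1a (-0.27 to 0.49) and -0.12 for Hadha (-0.34 to 0.10). The Acadm interval includes the 0.45 found for Acadm in the averaged G1 contrast. Whether G1 and G2 differ from each other was not tested.

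The ranges of some blood cell marker lists also differed between the G1 and control diets, which was not tested. The mean log2 ratio of the erythroid markers was -1.34 to -0.15 in C-G1 and -0.62 to 0.06 in LPS-G1, against -0.11 to 0.32 in C-G0 and 0.01 to 0.25 in LPS-G0. The cell division markers stood at -1.48 to -0.14 in C-G1 and -1.16 to 0.20 in LPS-G1, against 0.09 to 0.91 in C-G0 and 0.13 to 0.86 in LPS-G0. The monocyte markers were at 0.03 to 0.23 and -0.04 to 0.26 in C-G1 and LPS-G1, against -0.65 to 0.45 and -0.38 to -0.08 in C-G0 and LPS-G0. Without LPS the monocyte range on G1 thus lay inside that on the control diet. The erythroid and cell division ranges on G1 lay below those on the control diet without LPS, but overlapped them with LPS. The T cell, B cell, NK cell, neutrophil and platelet lists overlapped between the G1 and control diets, both with and without LPS. Of 7 heart muscle genes 5 were seen on some array, and their ranges did not overlap between these diets. They were -0.86 to -0.12 in C-G1 and -0.56 to 0.06 in LPS-G1, against -0.09 to 0.33 in C-G0 and 0.17 to 0.39 in LPS-G0. The heart muscle list was not set against single genes. Within groups some members varied with the other lists from rat to rat, among them lists that overlapped between the diets with and without LPS. With group means removed, the r with the T cell markers was 0.73 for Acadm and 0.57 for Cpt1a, Ucp2 had 0.67 with the platelet and 0.64 with the erythroid markers, and Hadha had 0.60 with the cell division markers. With the cell division and erythroid markers, Acadm had -0.53 and -0.39 and Cpt1a -0.34 and -0.32. Hadha had 0.40 with the erythroid and Ucp2 0.50 with the cell division markers. The largest r of Acadl was 0.47, with the B cell markers. Slc27a2 had no r beyond 0.20 in size with any of the 8 lists. Between members, Acadm and Cpt1a had an r of 0.62 within groups and Hadha and Ucp2 0.56, whereas Acadm and Hadha had -0.50. All points share the reference RNA and these values are descriptions. The part of cell makeup in the diet differences was not tested.

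**Figure D5:**
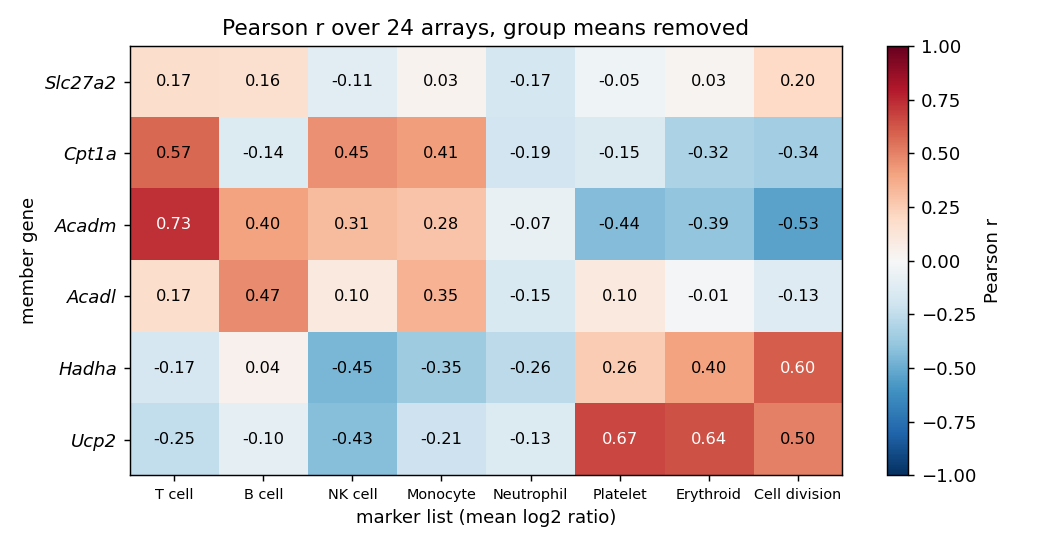
Pearson r over the 24 arrays, after each group's mean was taken off, between the log2 ratio of a member (rows) and the mean log2 ratio of a marker list (columns). Acadm and Cpt1a go with the T cell list (0.73 and 0.57), Ucp2 with platelets and erythroid cells (0.67 and 0.64), Hadha with cell division (0.60), and Slc27a2 with none. Acadm runs against cell division (-0.53).

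The rest of the route was read from 90 further genes on 7 lists. On all 24 arrays 22 of them were well above background, on some 46 and on none 22. The dim ones included the liver transporter Slc27a5, the adipocyte and gut binding proteins Fabp4 and Fabp2, the carnitine importer Slc22a5, the peroxisomal enzyme Ehhadh, and the coactivator Ppargc1a with its partner Rxra. In LPS-G1 vs LPS-G0, 2 of the 41 tested genes passed an adjusted p of 0.05 (4.88%, background 8.93%). Dbi, the acyl-CoA binding protein, was lower by -0.62 (SE 0.16, adjusted p 0.0290), with no overlap. Abcd4, counted with the peroxisomal transporters but known for moving vitamin B12 out of lysosomes, was higher by 0.90 (SE 0.26, adjusted p 0.0396) and was detected on 13 of 24 arrays. All 4 rats of LPS-G1 but 1 of 4 in LPS-G0 had a detected signal, so it entered the test through the higher group. Both calls were lost (0 of 41) without LPS-G0 replicate 1, 2 or 4 or LPS-G1 replicate 2, 3 or 4, and without LPS-G0 replicates 3 and 4 together. In the other 6 comparisons of 2 groups 0 passed. At an unadjusted p of 0.05 the count was 14 of 44 in C-G1 vs C-G0 (31.8%, background 27.9%), 8 of 44 in C-G2 vs C-G0 (18.2%, background 13.3%) and 3 of 41 in LPS-G0 vs C-G0 (7.32%, background 15.2%).

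In the averaged G1 contrast 14 of the 44 genes passed the adjusted p (31.8%, background 27.9%). The share was thus near that of all probes. Of the 14, 11 were higher and 3 lower, and of all 2987 probes called 1039 were higher, a difference that was not tested. Crot, Acad9 and Abcd4 were not detected on all 4 arrays of either G0 group, so they entered the test through other groups. Of 11 genes of mitochondrial beta-oxidation 5 rose, none fell and 6 did not pass. The risers were the hydratase Echs1 (0.70, SE 0.17, adjusted p 0.0154), the dehydrogenases Acad9 (0.49, SE 0.15) and Hadh (0.48, SE 0.15), the thiolase Acaa2 (0.46, SE 0.17) and Hsd17b10 (0.28, SE 0.10). Of 9 peroxisomal genes Scp2 (0.44), Abcd3 (0.43) and Abcd4 (0.63) rose, 1 fell and 5 did not pass. Of the carnitine enzymes Crot rose by 0.77 (SE 0.25), and of the acyl-CoA synthetases Acsl5 by 0.30 (SE 0.11). Among the regulators the nuclear receptor Esrra rose by 0.29 (SE 0.09) and Acacb, which makes the malonyl-CoA that restrains Cpt1a, fell by 0.57 (SE 0.21). Dbi fell by 0.58 (SE 0.15). The median over the 44 genes was 0.28, against 0.06 for all probes. With the slide as a block 6 genes passed, and without both LPS-G0 arrays of conflicting labels 5. Leaving out 1 array gave counts from 3 to 18, among them 16 without C-G0 replicate 2. The lower counts were 3 (C-G0 replicate 1 or C-G1 replicate 2), 4 (LPS-G1 replicate 4), 5 (LPS-G0 replicate 4), 7 (LPS-G1 replicate 2), 8 (LPS-G0 replicate 1) and 9 (LPS-G0 replicate 2). With Cy3 alone or all probes tested 0 passed. In the averaged G2 contrast 0 of 44 passed, with a median of 0.17, against -0.01 for all probes. The 5 mitochondrial genes that rose on G1 differed on G2 by 0.51 (Echs1), 0.25 (Acad9), 0.33 (Hadh), 0.46 (Acaa2) and 0.29 (Hsd17b10). Both averaged contrasts share the G0 arrays, and a difference between G1 and G2 was not tested.

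Of the genes not called in any 2-group comparison, those of each list with the smallest p in LPS-G1 vs LPS-G0 or LPS-G0 vs C-G0 were as follows. In LPS-G1 vs LPS-G0 the peroxisomal reductase Decr2 differed by -0.92 and Scp2 by 0.44, Acacb by -0.78 and Esrra by 0.29, Hadh by 0.46, Crot by 0.65 and Crat, the mitochondrial carnitine acetyltransferase, by -0.24. The lipid droplet protein Plin2 differed by 0.28, Acss1 by 0.37 and Oxct1, the ketone-using enzyme, by 0.26. In LPS-G0 vs C-G0 Acacb differed by 0.77, Hsd17b10 by 0.37, Acadvl by 0.31, Slc27a1 by 0.42, the fatty acid receptor Cd36 by -0.51, Acsl1 by -0.37 and Acsbg1 by -0.34. Their limma adjusted p-values were between 0.0703 and 0.428.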

How the data were processed

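Blood RNA of 24 rats was measured on two-color SurePrint G3 Rat arrays. The authors deposited the scanner files, made with Agilent Feature Extraction (the file headers give version 10.10.1.1 and the submitters' processing notes 10.7.3.1): background-subtracted, Lowess-balanced intensity of each channel and the log10 ratio of Cy5 over Cy3. The table deposited for the series has the same log10 ratios (1511424 values), identical to the single files. Here the sign was turned and the base changed to log2. Control spots and outlier spots (679 to 1133 of 58717 per array) were left out and spots of a probe averaged, for 30367 probes.

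A probe counted as detected where at least 50% of its spots were well above background in Cy3, and was tested when detected on all 4 arrays of a group (10315 probes for the 16 arrays of the study's groups, 10708 for all 24). Differences were tested with limma 3.58.1 (R 4.3.3; two-sided), with Benjamini-Hochberg adjustment over all probes tested. The 3 comparisons among C-G0 and the LPS groups used 16 arrays, and the other 4 comparisons, the interactions and the averaged diet contrasts 24. For single genes an exact two-sided permutation test was added, with 70 arrangements and a smallest p of 0.0286. The fit was tested on simulated data. A gene's main probe has the highest mean Cy3 signal. Arrays give no read depth, and the number of arrays limits the precision. Replicates were single rats, housed individually by the methods.

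The members, lists and tests were chosen with earlier results of these data known. A member's difference was named where its unadjusted p was under 0.05, and Slc27a2 in LPS-G1 vs LPS-G0 without a test; a list gene was named where its adjusted p was under 0.05, else the 3 of its list with the smallest p. A gene of the lists is counted but not reported here by name. The averaged diet contrasts were added after the data were seen. The alternatives were normexp (offset 50) with loess, Cy3 alone, no filter, slide or replicate blocks, array weights, outlier spots kept, the mean of a gene's probes, all 24 arrays, an analysis of variance followed by Tukey's test, as in the methods, and arrays left out.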

Additional observations from a re-analysis of the deposited data

How the results depend on the processing

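In LPS-G1 vs LPS-G0, where Slc27a2 was left aside since it was chosen on this difference, 0 members and 2 other pathway genes had an adjusted p under 0.05. The pathway count was 0 with Cy3 alone, with no filter on dim probes, with all 24 arrays in the fit, with the methods' analysis of variance and without both LPS-G0 arrays of conflicting labels, and 1 with the slide as a block or the mean of a gene's probes. With array weights the counts were 1 (Hadha) and 10. Array weights also gave 1 pathway gene in LPS-G0 vs C-G0. In the averaged G1 contrast the counts of 3 members (Slc27a2 left aside) and 14 pathway genes were 0 and 0 with Cy3 alone and with no filter, 1 and 6 with the slide as a block, and the pathway count was 5 without both LPS-G0 arrays of conflicting labels. With 1 array left out, the member count was 0 throughout for LPS-G1 vs LPS-G0. It ran from 0 to 1 for C-G1 vs C-G0 and from 0 to 3 in the averaged G1 contrast. The 1 was without C-G0 replicate 4, where Acadm was at 0.71 with a limma adjusted p of 0.0235. Without C-G0 replicate 1 Acadm was at 0.42 with a limma adjusted p of 0.474. The LPS-G1 vs LPS-G0 pathway count was 0 without LPS-G0 replicate 1, 2 or 4 or LPS-G1 replicate 2, 3 or 4. The pathway count then ran from 0 to 3 in LPS-G1 vs LPS-G0 and from 0 to 5 in C-G1 vs C-G0. It ran from 3 to 18 in the averaged G1 contrast and from 0 to 1 in LPS-G0 vs C-G0 (1 without C-G0 replicate 1). In C-G2 vs C-G0 it ran from 0 to 4, the 5 and the 4 being without C-G0 replicate 4. The 11 log2 differences recomputed under alternatives, 217 values in all, kept their sign.

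Same-numbered replicates were not treated as pairs: their deviations correlated between -0.25 and 0.54, and in no comparison were all 4 pairs over 0.1, though 3 of 4 were in C-G2 vs C-G0, LPS-G1 vs C-G1 and LPS-G2 vs C-G2, where 3 of 4 arrays also correlated best with their own number. With the replicate block the pathway count was 4 (LPS-G1 vs LPS-G0) and 1 (C-G1 vs C-G0), and no other count moved by over 1.5 times. Normexp correction reduced the Cpt1a difference in the averaged G1 contrast to 0.21 (limma adjusted p 0.0597 with the filter on dim probes).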
